A study of Homo sapiens with 6 samples.

Results

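The subject is a set of 10 genes that code for the chaperone machinery of steroid receptors, measured by RNA-seq in the human prostate cancer cell line C4-2. They are FKBP5, FKBP4, PTGES3, HSP90AA1, HSP90AB1, STIP1, HSPA8, DNAJA1, DNAJB1 and BAG1, chosen by their symbols from the 55765 gene symbols in the count files. C4-2 is a castration-resistant subline of LNCaP. The cells were kept in DMEM with fetal bovine serum and were treated for 72 h with 1 nM R1881 (methyltrienolone, a stable synthetic androgen), a dose the study calls supraphysiological (SAL), or with DMSO as the solvent control. Each group had 3 libraries, numbered 1 to 3, from independent experiments, so that every result concerns 1 cell line, 1 dose and 1 time point.

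A steroid receptor without ligand is folded in steps. HSP70 (HSPA8) takes up the receptor with the help of J-domain proteins (DNAJA1, DNAJB1), the adaptor HOP (STIP1) passes it to HSP90 (HSP90AA1, HSP90AB1), and p23 (PTGES3) closes the mature complex, in which an immunophilin, FKBP51 (FKBP5) or FKBP52 (FKBP4), occupies HSP90. FKBP5 is a classical target of steroid hormones, and FKBP51 is known to lower the hormone affinity of the glucocorticoid receptor, while FKBP52 is known to favour the activity of several steroid receptors. BAG1 releases ADP from HSP70, which ends a folding cycle.

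Between 7864471 and 12532355 reads were counted on genes per library, of which rRNA genes, removed before the tests, took 11.9% to 27.8%. All 11 markers of prostate luminal epithelium on a list were tested, and their summed level was 2802 to 5505 CPM (counts relative to the library size) in DMSO and 4960 to 9713 in SAL. Of the other cell types looked for, the basal epithelial markers reached at most 7 counts and the leukocyte markers at most 4 counts in any library, and KRT5, PTPRC, CD3E, CDH5, COL1A2 and DES were at 0 in all 6 libraries. The lists of fibroblast and endothelial markers reached at most 21.5 and 5.07 CPM. Libraries of the same replicate number deviated together, which is described for the 10 genes below.

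Of the 10 genes, 1 changed. FKBP5 rose upon SAL treatment, and the other 9 did not pass the test in either direction, of which 2, PTGES3 and BAG1, had an unadjusted p under 0.05. The test was edgeR's quasi-likelihood test, paired by replicate number, with Benjamini-Hochberg adjustment over the 16835 genes that passed a filter on low counts, and genes with an adjusted p under 0.05 are called differentially expressed genes (DEGs). All 10 passed the filter, and DESeq2 with the same pairing also called 1 of them. Among all genes tested, 20.8% were DEGs, 11.5% higher and 9.37% lower in SAL. The median log2 fold change was 0.06 over the 10 genes, 0.04 over the 9 without FKBP5 and -0.0011 over all genes tested. In RNA of a whole culture, a change in RNA per cell and a change in the share of cells that make it cannot be told apart.

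**Figure D1:**
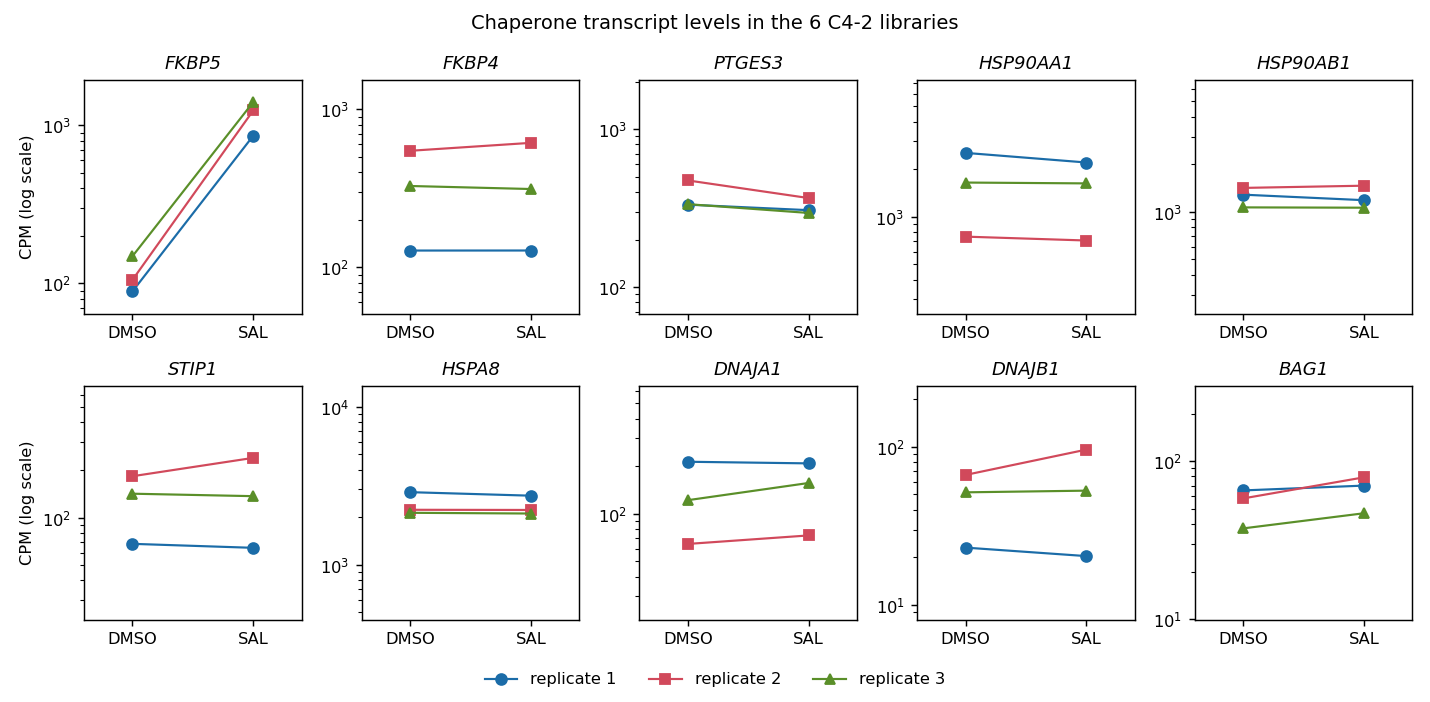
Level of each of the 10 chaperone genes in the 6 libraries, in CPM (counts relative to the library size, log scale, each panel spanning the same number of decades), with the DMSO and SAL library of a replicate number joined by a line. FKBP5 climbs in all 3 pairs, from at most 148 to at least 860 CPM, while in the other 9 genes the DMSO and SAL ranges overlap.

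FKBP5 was at 88.8, 105 and 148 CPM in DMSO replicates 1, 2 and 3, and at 860, 1243 and 1405 CPM in the SAL replicates. Here the library size of the CPM is scaled by TMM. The raw counts were 717, 768 and 1110 in DMSO and 6719, 11341 and 11405 in SAL. The lowest SAL library was thus far above the highest DMSO library, and replicate 1 was the lowest and replicate 3 the highest in both groups. The mean rose from 114 ± 30.8 to 1170 ± 280 CPM (SD, n = 3 in each group). The log2 fold change was 3.36 with a standard error of 0.11 (edgeR, adjusted p = 1.84e-11), which is 10.3-fold, with a 95% interval of 8.77- to 12.04-fold. Within pairs 1, 2 and 3 the log2 change was 3.27, 3.56 and 3.24, so that the 3 experiments differed by far less than the change itself. The groups of FKBP5 did not overlap, and those of the other 9 genes did, while 7.51% of all genes tested had groups that did not overlap.

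By log2 fold change FKBP5 stood at rank 44 of the 16835 genes tested. Among the 10309 genes with a mean of at least 10 CPM, it was at rank 16, and by the p of the test it was at rank 5 of all genes tested. It kept its call when each replicate number was left out, with log2 fold changes from 3.24 to 3.42, and under each other setting tried. Over these settings the adjusted p ran from 8.97e-248 to 0.0470, the latter in edgeR without the pairing.

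In GRCh37, FKBP5 takes up chromosome 6 from 35541362 to 35696360, minus strand. GRCh37 is the assembly of the hg19 genome that the reads were mapped to. Several steroid receptors bind as dimers to an inverted repeat with a spacer of 3 bases, and the introns of FKBP5 are known to carry such elements. The gene body holds 1 match to the full palindrome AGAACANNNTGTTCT, which reads the same on both strands (N is any base). It is shown here because FKBP5 is the member that responded. The match is at 35569859 to 35569873, printed in capitals within chr6:35569829-35569903, minus strand, 5′ to 3′.
FKBP5 intron 5: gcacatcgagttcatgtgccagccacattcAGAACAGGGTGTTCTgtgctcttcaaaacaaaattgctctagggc
The site is in intron 5 of the transcript with 11 exons, 86819 bp from its start at 35656692, with 16999 bp to the exon before and 4677 bp to the exon after. None of the 4 annotated FKBP5 transcripts has an exon at the site. With the relaxed form GNACANNNTGTNC, FKBP5 held 6 matches, the full one included, HSP90AA1 held 1 and the other 8 genes held 0.

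The match is described with its background, since FKBP5 is by far the longest of the 10 genes, 154999 bp against 5742 to 58958 bp. Of 14119 tested genes with a position in the annotation, 1.35% held the full palindrome, and of the 1453 at least as long as FKBP5, 6.68% did. Of 18489 genome windows of the length of FKBP5, 2.996% held it. No binding was measured in these data, and a match says only that these letters occur in the gene.

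FKBP4, the other receptor-associated immunophilin, was at 128, 547 and 328 CPM in DMSO and at 128, 614 and 313 CPM in SAL. The groups overlapped almost entirely, and replicate 1 was lowest in both. Its log2 fold change was 0.04 ± 0.09 (SE, adjusted p = 0.831), with a 95% interval of -0.16 to 0.23, and its direction reversed under some settings. FKBP4 had 1032, 4002 and 2452 counts in DMSO and 999, 5604 and 2544 in SAL, so that neither immunophilin was short of reads in SAL or DMSO.

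The balance of the immunophilins was compared as the ratio of FKBP5 to FKBP4 counts within each library, which does not depend on library size or scaling. The ratio was 0.695, 0.192 and 0.453 in DMSO and 6.73, 2.02 and 4.48 in SAL. In every DMSO library FKBP5 had fewer counts than FKBP4, and in every SAL library it had more. The mean log2 ratio went from -1.35 ± 0.95 to 1.98 ± 0.88 (SD, n = 3), a difference of 3.33, which is 10.04-fold, and by 3.28, 3.399 and 3.31 in pairs 1, 2 and 3. A two-sided exact permutation test gave p = 0.1, and a paired sign-flip test p = 0.25, each the smallest value that 3 against 3 libraries allow.

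Counts of unlike genes are not comparable without their lengths, and per kilobase of annotated exon the ratio looks different. On that scale (RPKM) FKBP5 and FKBP4 stood at 8.36 and 24.8 in DMSO replicate 1, at 9.88 and 106 in replicate 2, and at 13.96 and 63.5 in replicate 3. In SAL they stood at 81.0 and 24.8, at 117 and 119, and at 132 and 60.7. FKBP5 was therefore below FKBP4 in the 3 DMSO libraries, and in SAL it was above it in replicates 1 and 3 and level with it in replicate 2. The exon length of every gene joins all its annotated exons, so RPKM is a low estimate where long alternative isoforms are included. This holds for FKBP5 (10628 bp), and DNAJB1 (8188 bp) and BAG1 (7073 bp) had the next longest exons of the 10 genes. How far this shifts each gene was not tested.

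By mean RPKM the order in DMSO was HSPA8 (498), HSP90AB1 (422), HSP90AA1 (323), PTGES3 (112), FKBP4 (64.7), DNAJA1 (49.9), STIP1 (28.4), FKBP5 (10.7), BAG1 (7.59) and DNAJB1 (5.74). Neighbours in this order overlapped in their ranges over 3 libraries, except HSP90AA1 above PTGES3 and STIP1 above FKBP5. In SAL the order of the other 9 was the same, and FKBP5 moved from place 8 to place 4, at 110 ± 26.3 RPKM (SD, n = 3), where its range overlapped that of PTGES3 but not that of HSP90AA1. FKBP5 made up 1.17%, 1.78% and 2.47% of the counts of the 10 genes in DMSO and 11.05%, 17.5% and 19.5% in SAL. The 10 genes together took 0.604% to 0.752% of the gene counts without rRNA in the 6 libraries.

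**Figure D2:**
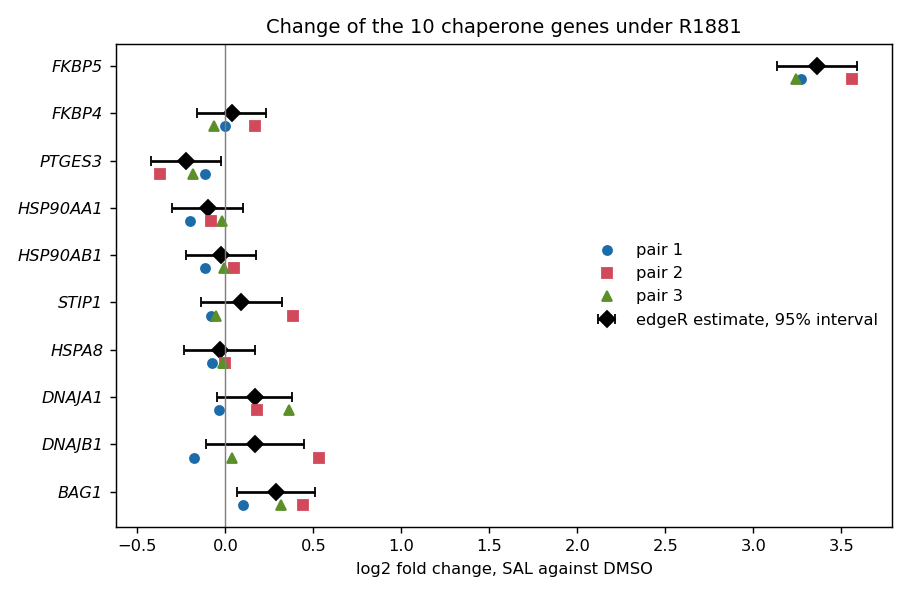
Log2 fold change of the 10 genes, SAL against DMSO, as the edgeR estimate with its 95% interval (diamonds and bars) and as the change within each pair (coloured points). FKBP5 stands alone at 3.36, and the intervals of the other 9 genes lie between -0.42 and 0.51.

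HSP90, the ATPase that holds the receptor ready for hormone, has an inducible form (HSP90AA1) and a constitutive form (HSP90AB1). HSP90AA1 was at 2539, 749 and 1648 CPM in DMSO and at 2207, 708 and 1628 CPM in SAL. HSP90AB1 was at 1286, 1419 and 1068 CPM in DMSO and at 1186, 1465 and 1063 CPM in SAL. Both ranges overlapped between the groups. The log2 fold changes were -0.10 ± 0.09 for HSP90AA1 (SE, adjusted p = 0.506) and -0.03 ± 0.09 for HSP90AB1 (adjusted p = 0.885). The ratio of HSP90AA1 to HSP90AB1 counts was 1.97, 0.528 and 1.54 in DMSO and 1.86, 0.483 and 1.53 in SAL, a mean log2 difference of -0.08 (two-sided exact permutation test, p = 0.7). Within pairs 1, 2 and 3 the log2 ratio was lower in SAL by small amounts, with differences of -0.09, -0.13 and -0.01 (exact paired sign-flip test, p = 0.25, the smallest that 3 pairs allow). The inducible form thus had more counts in replicates 1 and 3 and fewer in replicate 2, in both groups.

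PTGES3, the p23 cochaperone, was at 332, 473 and 335 CPM in DMSO and at 307, 366 and 294 CPM in SAL. It was lower in SAL in all 3 pairs, by log2 values of -0.12, -0.37 and -0.18, but the groups overlapped. Its log2 fold change of -0.22 ± 0.09 (SE) had an unadjusted p of 0.0284 and an adjusted p of 0.104 in edgeR. PTGES3 has near-identical processed pseudogenes, and 5 pseudogene symbols held 40.8% to 46.2% of the counts of gene and pseudogenes together. Whether these reads came from PTGES3 mRNA or from the pseudogenes was not tested. With the pseudogene counts added, the change within pairs 1, 2 and 3 was -0.11, -0.48 and -0.27. The value for PTGES3 is therefore uncertain in size, and its sign was the same either way.

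STIP1, the HOP adaptor, was at 68.1, 183 and 142 CPM in DMSO and at 64.3, 239 and 137 CPM in SAL. It was higher in SAL in pair 2, by 0.39 on the log2 scale, and slightly lower in pairs 1 and 3, with a log2 fold change of 0.09 ± 0.11 (SE, adjusted p = 0.608). Reads were counted without regard to strand, and 9.67% of the exon length of STIP1 overlaps an RNA annotated on the other strand.

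HSPA8, the constitutive HSP70 of the cytosol and the most abundant of the 10 genes per kilobase, was at 2880, 2228 and 2132 CPM in DMSO and at 2736, 2222 and 2110 CPM in SAL. It had a log2 fold change of -0.03 ± 0.09 (SE, adjusted p = 0.859), with changes of -0.07, -0.0037 and -0.02 in pairs 1, 2 and 3. Its groups overlapped, and all of its libraries lay within a narrow band. In the later annotation used here, the exons of HSPA8 enclose 2 snoRNAs, SNORD14C and SNORD14D, and 11.4% of them overlap an RNA on the other strand. Reads there may have been counted for HSPA8 or set aside as ambiguous, which was not tested.

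The J-domain proteins, which deliver substrates to HSP70 and start its ATP hydrolysis, differed more between replicates than HSPA8 did. DNAJA1 was at 213, 64.4 and 122 CPM in DMSO and at 208, 72.9 and 157 CPM in SAL. DNAJB1 was at 23.04, 66.5 and 51.6 CPM in DMSO and at 20.4, 96.2 and 52.9 CPM in SAL. Replicate 2 was lowest for DNAJA1 and highest for DNAJB1, in both groups. The log2 fold changes were 0.17 ± 0.10 for DNAJA1 (SE, adjusted p = 0.282) and 0.17 ± 0.13 for DNAJB1 (adjusted p = 0.419). The ratio of DNAJB1 to DNAJA1 counts was 0.108, 1.03 and 0.423 in DMSO and 0.0977, 1.32 and 0.338 in SAL, a mean log2 difference of -0.04 (two-sided exact permutation test, p = 1.0) that changed sign without replicate 1 or replicate 3.

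BAG1, the nucleotide exchange factor, was at 65.3, 58.1 and 37.5 CPM in DMSO and at 70.1, 79.1 and 46.8 CPM in SAL. Each pair had more of it in SAL, by 0.10, 0.44 and 0.32 on the log2 scale, and the groups overlapped. Its log2 fold change of 0.29 ± 0.10 (SE) was the largest among the 9 genes without FKBP5, with an unadjusted p of 0.0153 and an adjusted p of 0.0659 in edgeR. Over the alternatives, the adjusted p of BAG1 ran from 0.00795 (without replicate 1) to 1.00 (without the pairing).

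For the 9 genes the intervals give the size of change that these libraries leave possible. All 9 had a 95% interval of the log2 fold change within 1 of 0, against 73.8% of all genes tested, and 8 of 9 had it within 0.5 of 0, against 33.5% of all genes. The exception was BAG1, with an upper bound of 0.51. Intervals are narrower at high counts, and the 9 genes had means of at least 47.0 CPM in DMSO. Of the 16835 genes tested, 10309 had a mean of at least 10 CPM. No comparison with genes of like level was made, so these shares do not show that the 9 genes were unusually stable. Of the 9 genes, 5 had a positive and 4 a negative fold change, and 5 of the 10 genes moved the same way in all 3 pairs, against 51.2% of all genes. Without replicate 1, 5 of the 10 genes were DEGs, where 26.3% of all genes tested in that setting were, against 20.8% with all replicates. These were DNAJA1 at 0.28 (adjusted p = 0.0446), DNAJB1 at 0.30 (0.0393), BAG1 at 0.39 (0.00795) and PTGES3 at -0.28 (0.0253) beside FKBP5, each a log2 fold change with edgeR's adjusted p. With fewer pairs, edgeR takes the spread of a gene mostly from the other genes, so these calls say little about how the gene itself varied between experiments. Without replicate 2 or without replicate 3, FKBP5 was the 1 DEG among the 10 genes, where 17.0% and 7.26% of all genes tested were DEGs.

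The promoters of 3 HSP genes are shown because they hold the element by which these chaperones are known to be induced together. Heat shock factor binds as a trimer to repeats of the unit GAA in alternating direction, and the search was for 3 such units, GAANNTTCNNGAA or TTCNNGAANNTTC, which are reverse complements of each other. Of 35116 promoters in RefSeq (GRCh38.p14, 250 bases before the start of transcription to 50 after it), 0.490% held a match. Of the 10 genes, 9 had an entry, and 4 of them held a match, namely HSP90AA1, HSP90AB1, HSPA8 and DNAJA1. The 250 bases before the start follow, 5′ to 3′ on the strand of the gene, with the matches in capitals. They are chr14:102087045-102087294 (minus strand) for HSP90AA1, chr6:44247693-44247942 (plus strand) for HSP90AB1 and chr11:123062137-123062386 (minus strand) for HSPA8.
HSP90AA1: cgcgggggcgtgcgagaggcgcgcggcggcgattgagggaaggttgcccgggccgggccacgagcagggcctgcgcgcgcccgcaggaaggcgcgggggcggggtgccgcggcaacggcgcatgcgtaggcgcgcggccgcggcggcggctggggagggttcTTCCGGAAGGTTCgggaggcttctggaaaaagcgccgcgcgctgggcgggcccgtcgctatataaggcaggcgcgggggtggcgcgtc
HSP90AB1: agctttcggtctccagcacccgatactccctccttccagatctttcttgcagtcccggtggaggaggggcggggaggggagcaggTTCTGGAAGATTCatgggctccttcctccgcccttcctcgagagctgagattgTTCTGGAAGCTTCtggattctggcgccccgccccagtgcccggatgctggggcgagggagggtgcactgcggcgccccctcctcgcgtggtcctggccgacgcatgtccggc
HSPA8: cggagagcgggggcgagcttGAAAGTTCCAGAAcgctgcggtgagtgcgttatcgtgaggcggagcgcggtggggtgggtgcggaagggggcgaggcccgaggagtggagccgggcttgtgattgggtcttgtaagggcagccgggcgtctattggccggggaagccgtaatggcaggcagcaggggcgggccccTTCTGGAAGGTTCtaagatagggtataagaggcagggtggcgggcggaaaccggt
The match begins 88 bases before the start in HSP90AA1, 165 and 112 bases before it in HSP90AB1, and 230 and 55 bases before it in HSPA8. In DNAJA1 it lies just after the start. The promoter windows of FKBP5, PTGES3, STIP1, DNAJB1 and BAG1 did not hold these letters. The full steroid receptor palindrome was in 1 of the 35116 promoters and in 0 of the 16 entries of the members. The 4 genes with a match had log2 fold changes of -0.10 (HSP90AA1), -0.03 (HSP90AB1), -0.03 (HSPA8) and 0.17 (DNAJA1), none of them past the test.

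For all 9 genes without FKBP5 the range over the replicate numbers was larger than the change upon SAL treatment. A range over 3 means is not the same measure as a difference between groups. The share of all genes tested with such a range was not counted, so this does not set the 9 genes apart. The range of the mean log2 CPM over the 3 replicate numbers was 2.18 for FKBP4, 1.87 for DNAJB1, 1.70 for HSP90AA1, 1.65 for STIP1 and 1.62 for DNAJA1. It was 0.69 for BAG1, 0.44 for HSP90AB1, 0.41 for PTGES3 and 0.40 for HSPA8, against a median of 1.09 over all genes tested. For FKBP5 the range was 0.72, well below its change of 3.36. The changes of the 9 genes were at most 0.29 in size on the same scale.

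The 5 genes with the widest range over the replicate numbers fell into a GC-rich and a GC-poorer set. FKBP4, STIP1 and DNAJB1, with 52.5%, 54.4% and 55.7% GC, were lowest in replicate 1 and highest in replicate 2. DNAJA1 and HSP90AA1, with 41.3% and 45.5% GC, were highest in replicate 1 and lowest in replicate 2. Over the 10 genes, the deviation of a replicate number from the mean correlated with GC content at r = -0.76 in replicate 1, 0.79 in replicate 2 and 0.04 in replicate 3. Over 14138 tested genes with a known GC content the same r was -0.53, 0.73 and -0.20. These are descriptions over genes that share the same libraries. The closest profiles over the 6 libraries were those of STIP1 and DNAJB1, whose centred log2 CPM differed by a root mean square of 0.11. Not all genes followed GC content. FKBP5, with 42.4% GC, was lowest in replicate 1. PTGES3 (45.9%), close to HSP90AA1 in GC content, was highest in replicate 2 and below its mean in replicate 1, BAG1 (46.7%) was nearly equal in replicates 1 and 2, and HSPA8 (49.3%) was highest in replicate 1. A correction of each library for GC content left FKBP5 at 3.38 and the 9 other genes without a call (22.1% of all genes were DEGs), and the part of GC content in the replicate pattern was not tested.

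**Figure D3:**
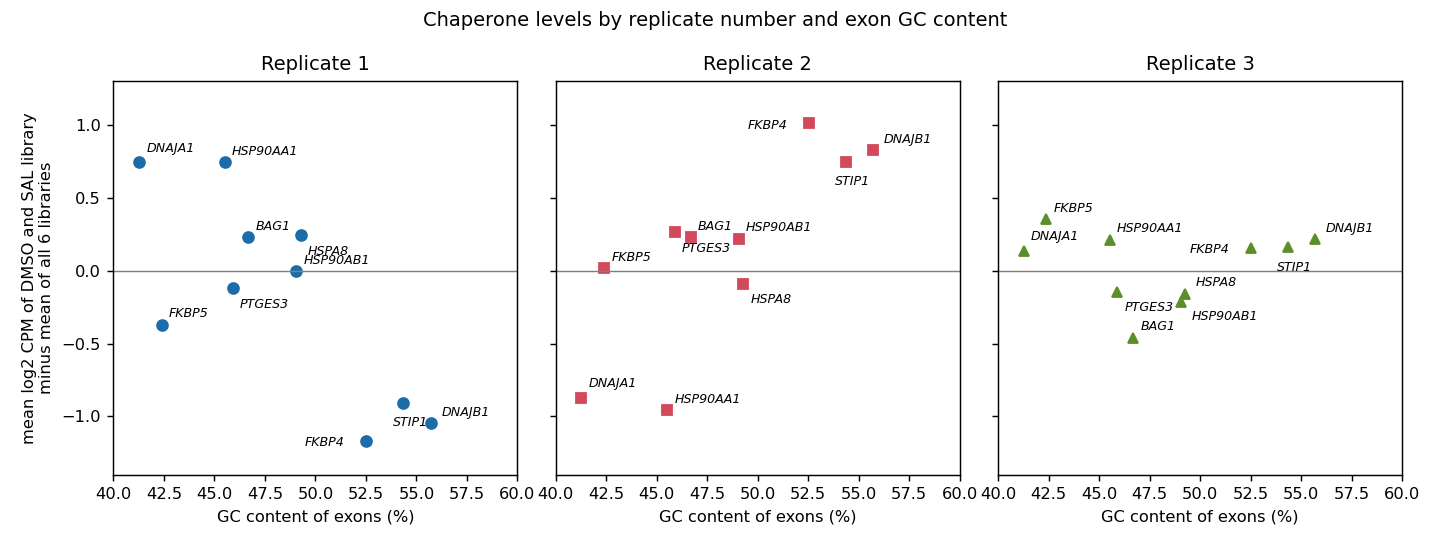
Deviation of each gene in each replicate number (mean log2 CPM of the DMSO and SAL library minus the mean of all 6 libraries) against the GC content of its exons in percent, 1 point per gene. FKBP4, STIP1 and DNAJB1 lie at the bottom in replicate 1 and at the top in replicate 2, and HSP90AA1 and DNAJA1 the other way round.

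Counts on processed pseudogene symbols were also set beside those of the other members, without a test of where the reads came from. They made up 21.7% to 22.9% of the joint counts for HSP90AB1 (4 pseudogene symbols), 7.16% to 9.75% for DNAJA1 (6 symbols) and 5.32% to 5.98% for HSPA8 (17 symbols). For HSP90AA1 and FKBP4 the share was at most 0.671% and 0.865%, and FKBP5, STIP1 and BAG1 had no such symbol. With the pseudogene counts added, the log2 changes within pairs were -0.11, 0.03 and -0.0062 for HSP90AB1, -0.05, 0.18 and 0.35 for DNAJA1 and -0.08, 0.0044 and -0.02 for HSPA8, so that the values stayed close to those of the genes alone.

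Around these 10 genes, 127 other chaperone and cochaperone genes were listed from general knowledge, and 106 of them were tested. Of these, 24 rose and 6 fell, which is 28.3% against 20.8% of all genes tested, with a median log2 fold change of 0.10 against -0.0011. Small changes pass the test more easily at high counts, and no comparison with genes of like level was made. The changes were small: 2 of the 106 were DEGs that moved by 1 or more on the log2 scale, against 5.26% of all genes tested. They also leaned on single replicate numbers. Without replicate 3, 3 of the listed genes were DEGs (7.26% of all genes tested), without replicate 2, 18 were (17.0% of all genes), without replicate 1, 38 were (26.3% of all genes), and without the pairing 0 were (0.125% of all genes), also at an unadjusted p under 0.05 in edgeR. DESeq2 with the pairing called 19 (13.3% of all genes). The values that follow hold with the pairing and all 3 replicates, and where a call was lost without replicate 1, without replicate 2 or in DESeq2 this is said. Of the list genes named, HSPA4L and DNAJB9 kept their call without replicate 3.

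Of the 25 tested HSP90 cochaperones outside the 10 genes, 5 rose and 1 fell (24.0%, against 20.8% of all genes tested), with a median of 0.11. FNIP2, an inhibitor of the HSP90 ATPase, rose by 0.60 (SE 0.11, adjusted p = 0.00114), from 18.2, 35.0 and 49.2 CPM in DMSO to 30.9, 47.9 and 75.4 CPM in SAL. CDC37, which brings kinases to HSP90, rose by 0.53 (adjusted p = 0.0114, lost without replicate 2), and its relative CDC37L1 by 0.49 (adjusted p = 0.00358). CHORDC1 fell by 0.45 (adjusted p = 0.00187), and it was lower in SAL in all 3 pairs. HSP90B1, the HSP90 of the endoplasmic reticulum, rose by 0.37 (adjusted p = 0.00975), and TRAP1, the mitochondrial one, did not pass the test.

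Of the 12 tested HSP70 and HSP110 genes, 2 rose and 3 fell (41.7%, against 20.8% of all genes tested), with a median of 0.12. HSPA5, the HSP70 of the endoplasmic reticulum, rose from 376, 620 and 489 CPM to 496, 873 and 667 CPM, by 0.45 on the log2 scale (adjusted p = 0.00213). HSPA4L fell by 0.72 (adjusted p = 9.06e-05), HSPA14 by 0.42 (adjusted p = 0.00869) and HSPA9, the mitochondrial HSP70, by 0.29 (adjusted p = 0.0354, lost without replicate 1 and in DESeq2). HSPA2 rose by 1.82 (adjusted p = 0.00985, lost in DESeq2 and not tested without replicate 2), but from 1, 9 and 4 counts in DMSO to 4, 34 and 20 in SAL.

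Of the 40 tested J-domain genes, 9 rose (22.5%, against 20.8% DEGs among all genes tested) and the other 31 did not pass the test, with a median of 0.10. DNAJB9, a J-domain protein of the endoplasmic reticulum, was at 39.0, 17.2 and 26.6 CPM in DMSO and at 78.4, 39.0 and 55.3 CPM in SAL, a log2 fold change of 1.07 (SE 0.11, adjusted p = 4.30e-06). It was the 1 gene of the 106 whose groups did not overlap, against 7.51% of all genes tested. DNAJC3, which acts with HSPA5, rose by 0.59 (adjusted p = 0.000636), from 205, 133 and 165 CPM in DMSO to 343, 166 and 269 CPM in SAL.

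Among the 12 tested FKBP genes outside the members, 4 rose (33.3%, against 20.8% DEGs among all genes tested) and the other 8 did not pass the test, with a median of 0.22. FKBP2 and FKBP11, both of the secretory pathway, rose by 0.71 (adjusted p = 0.00364) and 0.49 (adjusted p = 0.0167), and FKBP8 by 0.31 (adjusted p = 0.0307), all 3 lost without replicate 2, and FKBP11 and FKBP8 also in DESeq2. With the GC correction FKBP8 was at 0.19 and lost its call (adjusted p = 0.102). All were far below the log2 fold change of 3.36 for FKBP5. Of the 9 tested BAG proteins and other exchange factors, 3 rose and 1 fell (44.4%, against 20.8% of all genes tested), with a median of -0.09. SIL1, an exchange factor of HSPA5, rose by 0.51 (adjusted p = 0.00189), BAG3 by 0.41 (adjusted p = 0.0297, lost without replicate 2 and in DESeq2) and BAG2 by 0.33 (adjusted p = 0.0417, lost without replicate 1 and in DESeq2). GRPEL2, a mitochondrial exchange factor, fell by 0.46 (adjusted p = 0.00258), while its relative GRPEL1 did not pass the test (log2 fold change -0.16, adjusted p = 0.344). Of the 8 tested heat shock factors, small heat shock proteins and HSP60 and HSP10 genes, HSPB1 rose by 0.50 (adjusted p = 0.0381, lost without replicate 2), HSPD1, the mitochondrial HSP60, fell by 0.46 (adjusted p = 0.00161), and the median was 0.16.

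**Figure D4:**
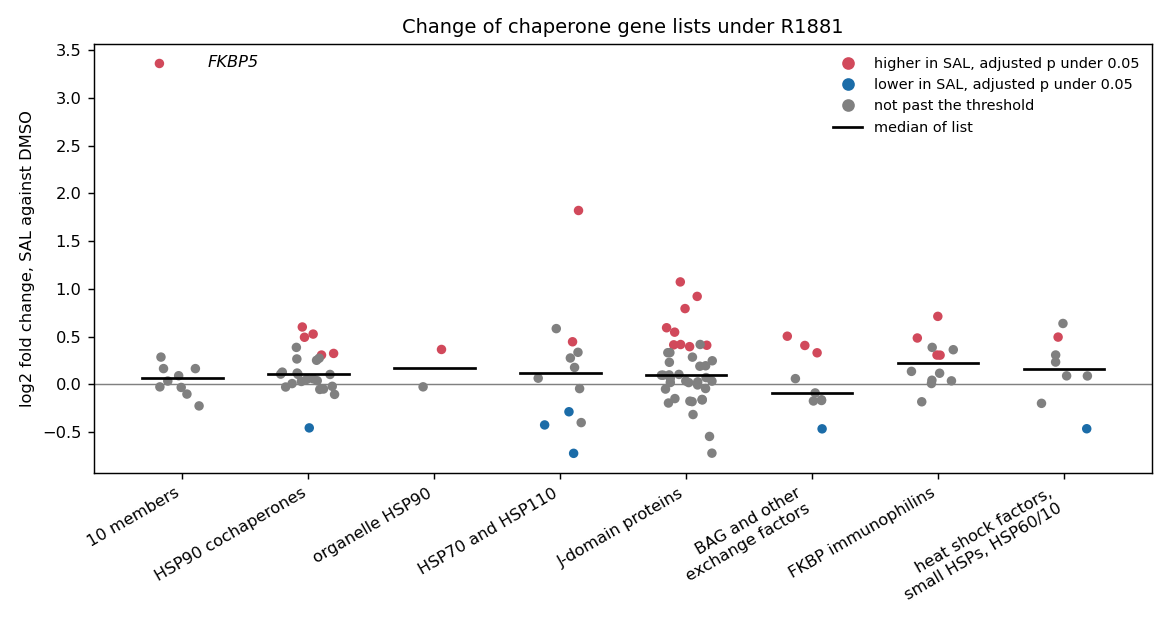
Log2 fold change, SAL against DMSO, of every tested gene of the 10 members and of 7 lists of other chaperones, 1 point per gene, with a bar at the median of each list. The medians lie between -0.09 and 0.22, and FKBP5 at 3.36 is above every other point.

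Some receptors that use this machinery were looked at too. NR3C2, the mineralocorticoid receptor, was at 42.4, 74.5 and 94.9 CPM in DMSO and at 28.05, 29.5 and 40.8 CPM in SAL, and it fell by 1.07 (adjusted p = 5.92e-05). NR3C1, the glucocorticoid receptor, had 16, 10 and 10 counts in DMSO and 1, 4 and 2 in SAL (adjusted p = 0.00902, lost in DESeq2 and without replicate 3). PGR, the progesterone receptor, had 21, 29 and 9 counts in DMSO and 4, 0 and 1 in SAL. It was a DEG, but it was not tested without replicate 1. Of the estrogen receptors, ESR2 did not pass the test (adjusted p = 0.0940) and ESR1 was not tested because of low counts.

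The genes around FKBP5 were looked at over 500 kb on either side. Of 15 tested genes with any part in that region, 3 rose and 2 fell, where 20.8% of all genes tested were DEGs. MIR5690, a microRNA gene annotated within FKBP5 on the same strand, had 6, 0 and 0 counts in DMSO and 61, 26 and 20 counts in SAL (adjusted p = 6.29e-05). It lies in an intron of FKBP5, so reads from unspliced FKBP5 RNA and from the microRNA precursor cannot be told apart there. ARMC12, on the opposite strand, starts 8.45 kb from 35696360, the outermost annotated start of FKBP5. The FKBP5 transcript with 11 exons starts at 35656692, which is farther from ARMC12. ARMC12 had 15, 8 and 3 counts in DMSO and 35, 49 and 35 in SAL. Its log2 fold change was 2.08 (SE 0.37, adjusted p = 0.000902 in edgeR), and its groups did not overlap. DEF6 rose by 0.77 (adjusted p = 0.00856, lost without replicate 2), FANCE fell by 0.94 (adjusted p = 0.00503, lost without replicate 3) and PPARD fell by 0.42 (adjusted p = 0.0399, lost without each replicate number and in DESeq2). The other 10 tested genes did not pass the test.

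**Figure D5:**
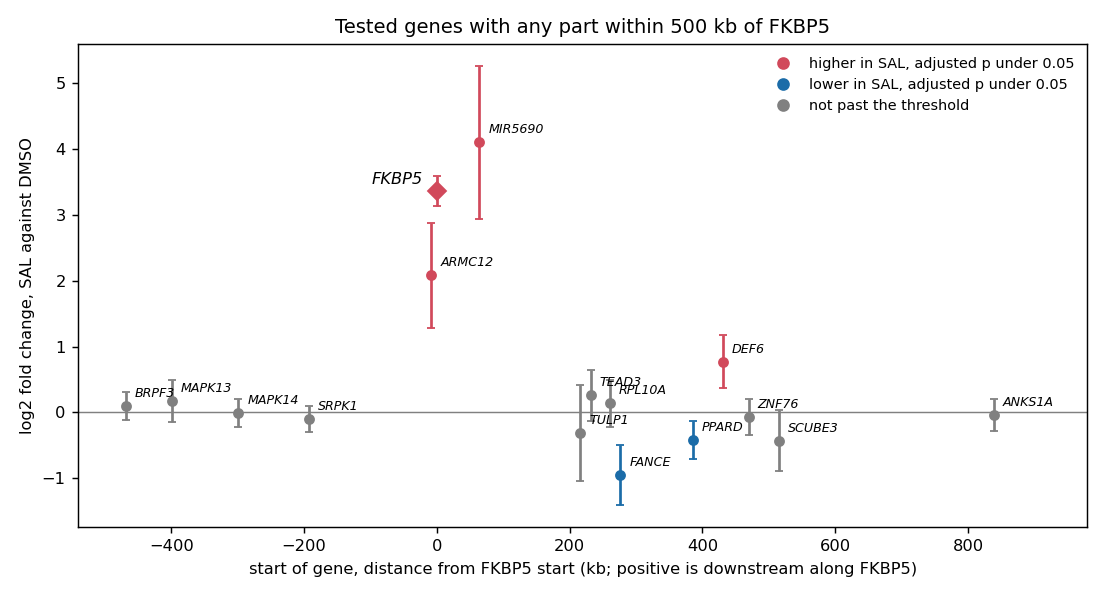
Log2 fold change with its 95% interval for FKBP5 and the 15 tested genes with any part within 500 kb of it, against the distance of each gene's start from the outermost annotated start of FKBP5 in kb. MIR5690 and ARMC12, the nearest starts, are the highest of the 15, at 4.10 and 2.08, and the other points lie between -0.94 and 0.77.

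The genes whose profile was most like that of FKBP5 were found by the root mean square difference between centred log2 CPM over the 6 libraries, among genes with a mean of at least 10 CPM. They were RHOU (0.253), PTPN21 (0.292), NCAPD3 (0.337), ERRFI1 (0.360) and CHRNA2 (0.403), against a median difference of 1.77 over all such genes. RHOU was at 56.5, 83.1 and 122 CPM in DMSO and at 433, 701 and 982 CPM in SAL. NCAPD3 was at 93.9, 114 and 158 CPM in DMSO and at 568, 771 and 1098 CPM in SAL. Like FKBP5, both were lowest in replicate 1 and highest in replicate 3 in each group. The log2 fold changes of the 5 genes were 3.01, 3.13, 2.72, 2.83 and 4.05 in the order given. They were chosen for this likeness, so no test was made.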

How the data were processed

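RNA-seq libraries (6) were made from total RNA with a stranded kit. The authors trimmed the reads, aligned only the first reads against hg19 by TopHat2 2.1.0 (Bowtie) and counted per gene without regard to strand with HTSeq 0.11.2 (gencode v19). What was deposited is the raw count of each gene symbol, without normalization. The 5 tally lines were left out. Removal of 523 rRNA symbols and edgeR's filterByExpr left 16835 of 55765 symbols.

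Groups and replicate numbers come from the labels. Over the tested genes, libraries of the same number deviated together, with correlations of 0.89, 0.86 and 0.74, so the number was used as a block, and the paper's methods also name a paired test. The test was edgeR 4.0.16 (R 4.3.3; TMM, robust quasi-likelihood, Benjamini-Hochberg), and DESeq2 1.42.0 was an alternative. The script was tested on simulated data. CPM are relative to the TMM library size, changes within pairs use log2 CPM with a prior count of 2, and intervals are at 95%. Exon length, GC content and positions come from GRCh37 with a lifted GENCODE v44, a later release than that of the counts. GC content was known for 84.0% of the tested genes. For ratios, SciPy 1.17.1 gave exact permutation tests.

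The members and the gene lists were chosen with earlier results of these data known. Named are all 10 members, up to 3 rising and 3 falling DEGs of each list with the smallest adjusted p, and the 5 genes most like FKBP5, although a few named by this rule are left out here. The DEGs near FKBP5 were named after their values were seen. The list of cochaperones also holds PPP1R2, a phosphatase regulator that is not a cochaperone. The alternatives are given in the closing section, and the GC correction was chosen after seeing the data.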

Additional observations from a re-analysis of the deposited data

How the results depend on the processing

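FKBP5 kept its direction and its call under all 11 alternatives, with log2 fold changes from 3.24 to 3.42. The replicate block decided most other calls: without the block there were 21 DEGs among all genes (18 higher, 3 lower), FKBP5 was still 1 of them (adjusted p = 0.0470), and 0 of the other chaperone genes were called in edgeR, also at an unadjusted p under 0.05. The exact sign-flip permutation test of the FKBP5 to FKBP4 ratio, which uses the pairing, gave p = 0.25, the smallest it can give. DESeq2 with the block called 2240 genes (1290 higher, 950 lower) and 19 of the other chaperone genes, and a minimum change of 1 on the log2 scale left 886 genes (541 higher, 345 lower) and 2 of the other chaperone genes. Leaving out 1 replicate number at a time gave 1233 to 4398 DEGs, 1 to 5 among the 10 genes and 3 to 38 among the other chaperone genes, each lowest without replicate 3 and highest without replicate 1. Without the filter on low counts, 2 of the 10 genes were called, BAG1 being the second (0.30, adjusted p = 0.0480).

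Of the log2 fold changes near 0, some changed sign. FKBP4 was at -0.0047 with the GC correction, and leaving out 1 replicate number gave -0.049 to 0.086 for FKBP4, -0.078 to 0.020 for HSP90AB1, -0.083 to 0.17 for STIP1, -0.071 to 0.30 for DNAJB1, -0.28 to -0.17 for PTGES3, 0.069 to 0.28 for DNAJA1 and 0.18 to 0.39 for BAG1. The log2 change of the DNAJB1 to DNAJA1 ratio ran from -0.24 to 0.10. The cause of these changes was not tested. With 3 libraries a group, exact tests of a ratio cannot go below 0.1. The adjusted p-values of the paired tests concern experiments in 1 cell line. They reflect how much changes differed between these experiments, with the spread of each gene estimated in large part from the other genes. Differences in level between the experiments are taken up by the block.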
